A study of Mus musculus with 10 samples.

Results

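The globin genes described here are 6 genes found by symbol in the deposited expression table: Hba-a1 and Hba-a2, which encode adult alpha globin, Beta-s and Hbb-b1, which encode adult beta globin, and Hbb-bh1 and Hbb-y, which encode embryonic beta-like globins. They are 6 of 23240 genes, and 4 of them, the adult genes, passed a filter of at least 1 RPKM in at least 2 libraries, which left 10905 genes for testing. RPKM is a read count scaled to the length of the gene and to the depth of the library. The 10 RNA-seq libraries came from sorted mouse bone-marrow progenitors in 5 groups of 2. All mice carried the vav-Cre transgene, which expresses Cre recombinase in blood cells. Their Runx1 alleles were Runx1+/+ (wild type) or Runx1fl/fl (called Runx1-deleted here, as labelled). All groups shared the lin- sca- kit+ CD41- CD105- gate, and the labels give no ages of the mice. Granulocyte-macrophage progenitors (GMP, CD16/32+ CD150-) and megakaryocyte-erythroid progenitors (MEP, CD16/32- CD150+) were sorted from both genotypes, and XMP (CD16/32+ CD150+) from the Runx1-deleted genotype alone. The labels do not say that the 2 libraries of a group came from separate mice, so p-values measure only the spread between these libraries, which may be technical.

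Hemoglobin is a tetramer of alpha-like and beta-like globin chains that each hold a heme group, and it carries oxygen in red cells. The alpha-like genes lie in one cluster and the beta-like genes in another, each read from a distant upstream enhancer and switched from embryonic to adult members during development. Globin RNA becomes abundant when erythroid precursors mature, under factors such as Gata1 and Klf1, so progenitors that have not begun terminal maturation hold little of it. Runx1 is a transcription factor of blood formation known for roles in stem cell emergence, megakaryocyte maturation and myeloid and lymphoid development.

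Sequencing depth ran from 20.8 to 54.9 M reads a library, with 75.9% to 84.0% of the reads inside genes. Runx1 itself stood at 26.8 and 28.5 RPKM in the wild-type GMP libraries and at 63.0 and 72.3 in the Runx1-deleted ones, at 17.2 and 25.5 against 36.8 and 41.5 in the MEP gate, and at 78.5 and 85.9 in XMP. These are levels of the whole gene, higher in the libraries labelled Runx1-deleted, and the sources used here do not give the floxed stretch, so they do not check the deletion; each group below is the group so labelled. The gates held against their markers: all 8 GMP markers were lower and all 9 MEP markers higher in wild-type MEP than in wild-type GMP (limma, Benjamini-Hochberg adjusted p under 0.05), beside 11.7% of all tested genes called lower and 9.83% higher.

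The windows before the starts of 3 members are shown because the adult genes shared 1 order of group means while the embryonic Hbb-y stayed at the floor of detection. Each is the 120 bases before the start that RefSeq annotates on GRCm38.p6, 5′ to 3′ on the gene's strand, and is matched by symbol (Beta-s by its RefSeq synonym Hbb-bs). The window of Hba-a1 is chr11:32283552-32283671 (+), that of Beta-s is chr7:103827929-103828048 (-) and that of Hbb-y is chr7:103853208-103853327 (-). Capitals mark the letters CCAAT, the letters CACCC, which form the core of Kruppel-like factor sites, and the TATA-like letters ATAAAA.
Hba-a1: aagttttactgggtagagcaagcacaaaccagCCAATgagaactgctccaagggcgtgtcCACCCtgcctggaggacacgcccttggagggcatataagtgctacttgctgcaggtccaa
Beta-s: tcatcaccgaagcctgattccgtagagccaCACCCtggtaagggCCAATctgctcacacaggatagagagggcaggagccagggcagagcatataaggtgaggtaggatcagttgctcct
Hbb-y: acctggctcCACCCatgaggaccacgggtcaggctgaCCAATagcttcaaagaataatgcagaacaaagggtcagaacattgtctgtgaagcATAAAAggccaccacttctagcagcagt

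Searched over 250 bases before the start on both strands, these 3 genes and Hba-a2 each held CACCC, which 52.0% of 32851 promoter windows of that length hold, and CCAAT, which 33.8% hold. Each also held 1 match to the GATA letters, TGATAA at position -183 in Hba-a1, -186 in Hba-a2 and on the reverse strand at -162 in Hbb-y, and AGATAA at -210 in Beta-s, counted from -1 at the base before the start. TGATAA occurs in 7.9% and AGATAA in 10% of the windows. The RUNX letters TGTGGT, found in 14.0% of the windows, the NF-E2 and AP-1 letters TGAGTCA, found in 4.5%, and TATAAA, found in 12.4%, had no match in the 4 windows. ATAAAA, found in 17% of the windows, was matched in Hbb-y alone among the 4. Other TATA-like letters were not searched for, and the letters CATATAA stand unmarked in the printed windows of Hba-a1 and Beta-s. A missing match to TATAAA or ATAAAA is thus not a lack of TATA-like letters. So the adult alpha, adult beta and embryonic genes held matches to the same 3 kinds of letters at different positions, with the GATA letters upstream of the printed stretches. A match is a description of letters, not of binding.

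Beta-s, the most abundant of the members per length, stood at 31.2 and 51.3 RPKM in wild-type GMP and at 63.0 and 70.1 RPKM in wild-type MEP. It stood at 191 and 222 RPKM in Runx1-deleted MEP, 229 and 376 in Runx1-deleted GMP, and 445 and 872 in XMP. Every Runx1-deleted library lay above every wild-type library, and the share of all tested genes with that order was not counted. Within a gate, both Runx1-deleted libraries lay above both wild-type ones for 37.2% of tested genes in GMP and 21.6% in MEP. Within a library, Beta-s ranked from 1367 to 2390 among the 23240 genes in wild-type GMP and at 1017 and 1029 in wild-type MEP. In the Runx1-deleted groups it ranked at 214 and 220 in MEP, at 126 and 193 in GMP and at 67 and 94 in XMP.

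Hba-a1 read 11.2 and 18.5 RPKM in the wild-type GMP libraries, 27 and 27.3 in the wild-type MEP libraries, 57.4 and 64.8 in Runx1-deleted MEP, 82.9 and 152 in Runx1-deleted GMP, and 154 and 321 in XMP. Hba-a2 followed at 10.5 and 17, 26.1 and 26.3, 54.7 and 65.2, 80.7 and 149, and 154 and 319.6 RPKM in the same order of groups. Both alpha genes thus had the same order of group means as Beta-s, and the ranges of neighbouring groups did not overlap, although the gap between the highest Runx1-deleted GMP library and the lowest XMP library was only 2.13 RPKM for Hba-a1. The share of all tested genes without such overlap was not counted.

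Hbb-b1, the lower of the 2 adult beta members, stood at 1.12 and 3.83 RPKM in the wild-type GMP libraries, 3.31 and 4.96 in the wild-type MEP libraries, 17.8 and 22.5 in Runx1-deleted MEP, 16.8 and 30.4 in Runx1-deleted GMP, and 35.9 and 63.4 in XMP. Its group means kept that order, but the ranges of wild-type GMP and MEP overlapped, as did those of Runx1-deleted MEP and GMP. The 2 XMP libraries differed most from each other: replicate 1 had 1576 RPKM of the 4 adult genes together and replicate 2 had 789. Together the adult genes took 0.00743% ± 0.00293 (SD, n = 2) of the reads in genes in the wild-type GMP group, 0.0134% ± 0.000652 in the wild-type MEP group, 0.0355% ± 0.00204 in Runx1-deleted MEP, 0.0595% ± 0.0213 in Runx1-deleted GMP and 0.124% ± 0.0540 in XMP. These shares use reads worked back from RPKM, and the alpha part depends on recovered gene lengths that are uncertain. In these bulk samples, a change in the number of globin-containing cells and a change in globin RNA per cell cannot be told apart.

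**Figure D1:**
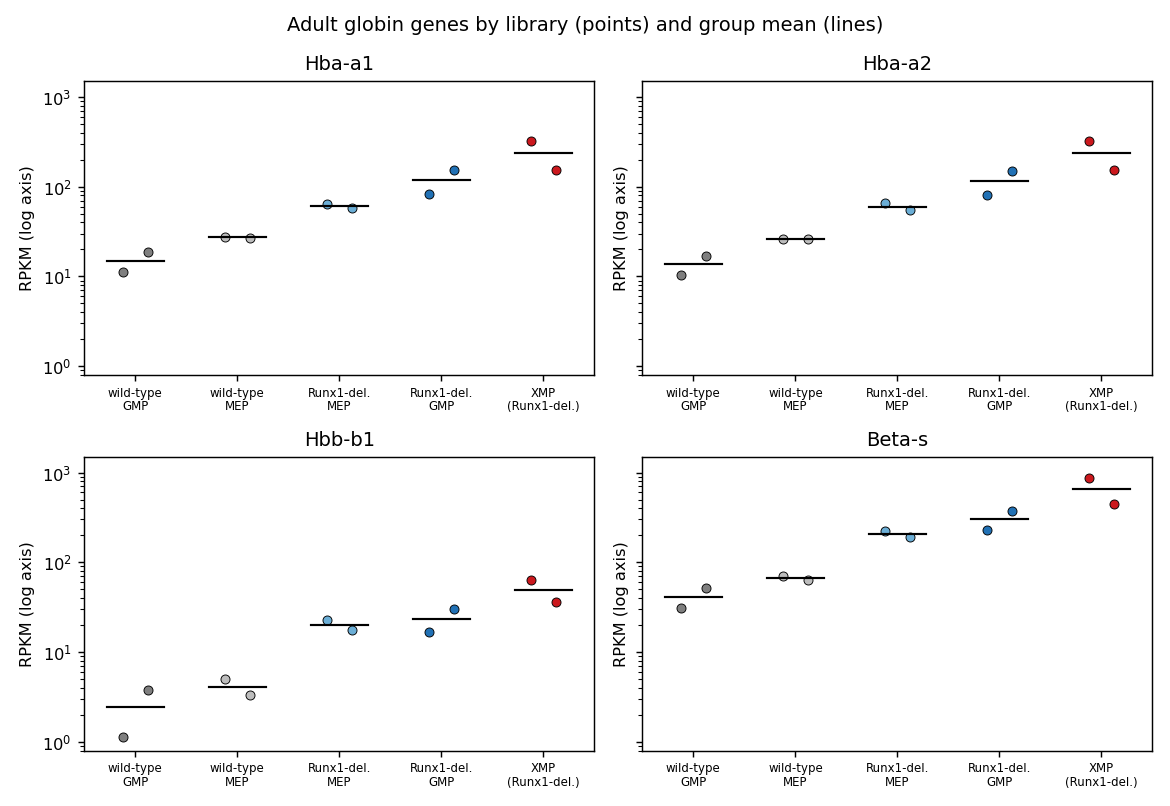
RPKM (log axis) of the 4 adult globin genes in each of the 10 libraries, with points for libraries and lines for group means (n = 2). The group means are lowest in wild-type GMP and highest in XMP in each panel, and Beta-s stands at 872 RPKM in 1 XMP library against 31.2 in 1 wild-type GMP library.

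The paralogs cannot be separated well. In the GENCODE M21 annotation, the coding sequences of Hba-a1 and Hba-a2 differ at 1 of 429 bases and share 87.1% of their 50-base windows, and those of the adult beta genes Hbb-bs and Hbb-bt differ at 1 of 444 bases and share 92.9%. Of these beta genes, Hbb-bs stands for Beta-s, while Hbb-bt is no member and was not found by symbol. The sequence of Hbb-b1 was not compared, so the 92.9% is not a value of the pair Beta-s and Hbb-b1. The deposited RPKM steps gave gene lengths of 1118 bases for Hba-a1 and 1126 for Hba-a2, longer than the annotated transcripts of 699 and 554 bases, while Beta-s at 639 and Hbb-b1 at 626 bases lay near that of Hbb-bs at 628. The read counts of Hba-a1 and Hba-a2 were in a ratio of 0.986 to 1.08 in every library. How the counting treated reads that fit both copies is not given in the sources used here, so the split within each pair is uncertain. The read counts were worked back from RPKM with those lengths, so the alpha read counts and shares of reads depend on them. The deposited RPKM do not use the recovered lengths.

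The balance of alpha to beta was described in worked-back reads, which depend on the uncertain alpha lengths, and in RPKM, which do not use them. Alpha globin made up 54.1% of the adult globin reads in replicate 1 of wild-type GMP (95% Wilson interval 51.8% to 56.4%) and 53.1% (50.6% to 55.6%) in replicate 2. It made up 55.7% (54.1% to 57.2%) and 58.5% (57.0% to 59.9%) in wild-type MEP. The share was lowest in Runx1-deleted MEP, at 48.3% (47.4% to 49.2%) and 48.6% (47.7% to 49.5%), below all 8 other libraries. Runx1-deleted GMP had 53.9% (53.2% to 54.6%) and 56.5% (55.9% to 57.1%), and XMP had 54.6% (54.2% to 55.0%) and 53.0% (52.4% to 53.6%). In RPKM, the ratio of the alpha sum to the adult beta sum was 0.658 ± 0.0195 (SD, n = 2) in the wild-type GMP group, 0.758 ± 0.0617 in the wild-type MEP group, 0.534 ± 0.00497 in Runx1-deleted MEP, 0.702 ± 0.0523 in Runx1-deleted GMP and 0.663 ± 0.0307 in XMP. The low share of Runx1-deleted MEP lay outside the counting error of the other groups, and its mean was 48.4% against 57.1% in wild-type MEP. The exact permutation test of those 2 against 2 libraries gave a two-sided p of 0.333, the smallest it can give, and no fit that pools the spread over all groups was made for the share. The intervals cover counting error only, since reads made by PCR are not independent molecules. They also take the alpha read counts at the recovered lengths, so the shares and intervals would change with other lengths.

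Hbb-b1 reads made up 6.48% (95% Wilson interval 5.42% to 7.73%) and 4.89% (4.02% to 5.95%) of the adult beta reads in wild-type MEP, and 9.02% (8.31% to 9.78%) and 8.37% (7.67% to 9.12%) in Runx1-deleted MEP. The other groups lay from 3.40% (2.36% to 4.87%) in replicate 1 of wild-type GMP, where 28 reads stood behind the value, to 7.35% (6.89% to 7.83%) in replicate 2 of Runx1-deleted GMP. The Runx1-deleted MEP libraries were thus the lowest in the alpha share and the highest in the Hbb-b1 share. How reads were divided between Hbb-b1 and Beta-s is uncertain, so the Hbb-b1 share may not be a balance of 2 genes.

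**Figure D2:**
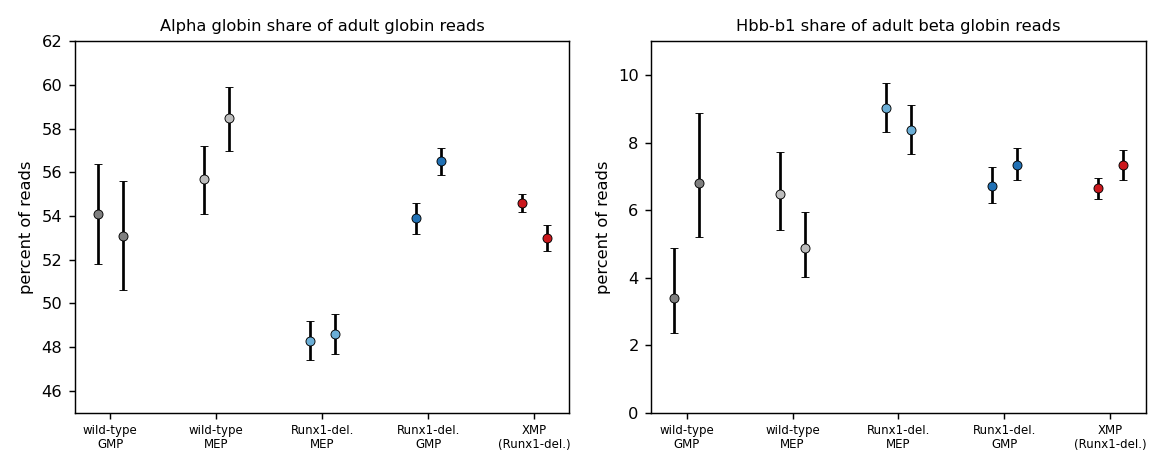
Share (percent of reads worked back from RPKM) of alpha globin among adult globin reads (left, axis from 45 to 62) and of Hbb-b1 among adult beta globin reads (right), by library, with 95% Wilson intervals. The alpha share depends on the recovered alpha gene lengths. The 2 Runx1-deleted MEP libraries lie at 48.3% and 48.6% on the left, below the other 8, and at 9.02% and 8.37% on the right, above the other 8.

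The embryonic members were near 0 throughout. Hbb-bh1, expressed in primitive red cells of the yolk sac, had 4 reads in 2 of 10 libraries, with 1 read in replicate 2 of Runx1-deleted MEP and 3 in replicate 1 of XMP. Hbb-y, the epsilon-like globin of primitive red cells, had 3 reads in 1 of 10 libraries, replicate 1 of Runx1-deleted MEP. The adult members had 163869 worked-back reads in all 10 libraries. Where a library had no read, a count of 0 allows up to 3 reads, or 0.0896 to 0.236 RPKM for Hbb-bh1 over the libraries without a read. No group showed embryonic globin above that floor, and the coding sequence of Hbb-bh1 and that of Hbb-y share none of their 50-base windows (0) with Hbb-bs.

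Both alpha and both adult beta genes rose in Runx1-deleted GMP over wild-type GMP. Hba-a1 rose by 2.88 ± 0.36 (SE) on the log2(RPKM + 1) scale, with an adjusted p of 0.000799 (limma over all tested genes, Benjamini-Hochberg). Hba-a2 rose by 2.94 ± 0.36 (adjusted p = 0.000697) and Beta-s by 2.84 ± 0.34 (adjusted p = 0.000666). Hbb-b1 rose by 2.89 ± 0.41 (adjusted p = 0.00162). The 4 differences spanned 2.84 to 2.94, and the median of all tested genes was 0.05. Of all tested genes, 3.15% were called higher and 2.07% lower in this contrast. For each of the 4 genes both Runx1-deleted libraries lay above both wild-type libraries, as they did for 37.2% of all tested genes.

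As a ratio of mean RPKM, the sum of the 4 genes was 7.71-fold higher in Runx1-deleted than in wild-type GMP. Within library numbers 25 to 29 of the column headers the ratio was 13.1, and within numbers 30 to 34 it was 4.51. Replicate 1 of wild-type GMP had 54.1 RPKM against 90.7 in replicate 2, and replicate 2 of Runx1-deleted GMP had 707 against 409 in replicate 1. All 4 calls stood when any 1 of the 10 libraries was left out. Both Runx1-deleted GMP libraries were run in lane 5 and the wild-type ones in lanes 2 and 3, so lane and genotype cannot be told apart in this gate.

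In MEP the beta globin genes rose and the alpha genes did not pass the test. Hbb-b1 rose by 2.05 ± 0.41 (SE, log2 scale; limma adjusted p = 0.0110) and Beta-s by 1.62 ± 0.34 (adjusted p = 0.0157). Hba-a1 differed by 1.14 ± 0.36 (95% interval 0.34 to 1.93, adjusted p = 0.0853) and Hba-a2 by 1.16 ± 0.36 (0.37 to 1.95, adjusted p = 0.0791). Thus 2 of 4 genes were called, beside 3.97% of all tested genes called higher and 4.03% lower. For all 4 genes both Runx1-deleted libraries lay above both wild-type ones, as for 21.6% of all tested genes. The adult sum was 2.80-fold higher, with ratios of 2.91 and 2.69 within the 2 ranges of library numbers.

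The MEP calls rested on single libraries. Without replicate 1 of Runx1-deleted MEP 0 of 4 genes were called, with Hbb-b1 at an adjusted p of 0.0687 and Beta-s at 0.0849. Hbb-b1 alone was called without replicate 1 of wild-type MEP (adjusted p = 0.0368) or without replicate 2 of Runx1-deleted MEP (0.0442), and all 4 were called without either XMP library, which enters only through the shared estimate of the spread. In lanes 4 and 5 alone, with 1 wild-type MEP library left, Hbb-b1 was called (2.29, adjusted p = 0.0346) and Beta-s was not (1.69, adjusted p = 0.0909).

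The differences were smaller in MEP than in GMP for all 4 genes, but the difference between the gates did not pass the test. On the log2 scale, the effect in MEP minus that in GMP was -1.74 ± 0.51 (95% interval -2.86 to -0.62) for Hba-a1 at an adjusted p of 0.161. It was -1.78 (-2.90 to -0.66) for Hba-a2 at 0.148, -1.23 (-2.30 to -0.16) for Beta-s at 0.362 and -0.84 (-2.10 to 0.43) for Hbb-b1 at 0.839. After adjustment 0 of the 4 were called, beside 1.74% of all tested genes called in either direction. The 2 alpha genes had the widest gap between the gates and Hbb-b1 the narrowest.

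The deposited table of the authors holds Baggerley's test, which compares proportions of reads, for the same groups. In the authors' deposited table, the FDR-corrected p between the genotypes in GMP was 0.00844 for Beta-s, 0.0823 for Hba-a1, 0.0830 for Hba-a2 and 0.0765 for Hbb-b1. Between the genotypes in MEP, the authors' deposited table lists 3.40e-06 for Hba-a1, 3.26e-06 for Hba-a2, 0.000440 for Hbb-b1 and 0 for Beta-s. The authors' test thus had smaller p-values in MEP than in GMP for all 4 genes, and the limma fit the reverse. For XMP against Runx1-deleted GMP, the authors' deposited table lists 0.690 for Beta-s, which the limma fit called, and 0.551 for Hbb-b1. For XMP against Runx1-deleted MEP, the authors' deposited table lists 0.419 for Hba-a1, 0.389 for Hba-a2 and 0.355 for Beta-s, all called by the limma fit, and 0.345 for Hbb-b1.

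**Figure D3:**
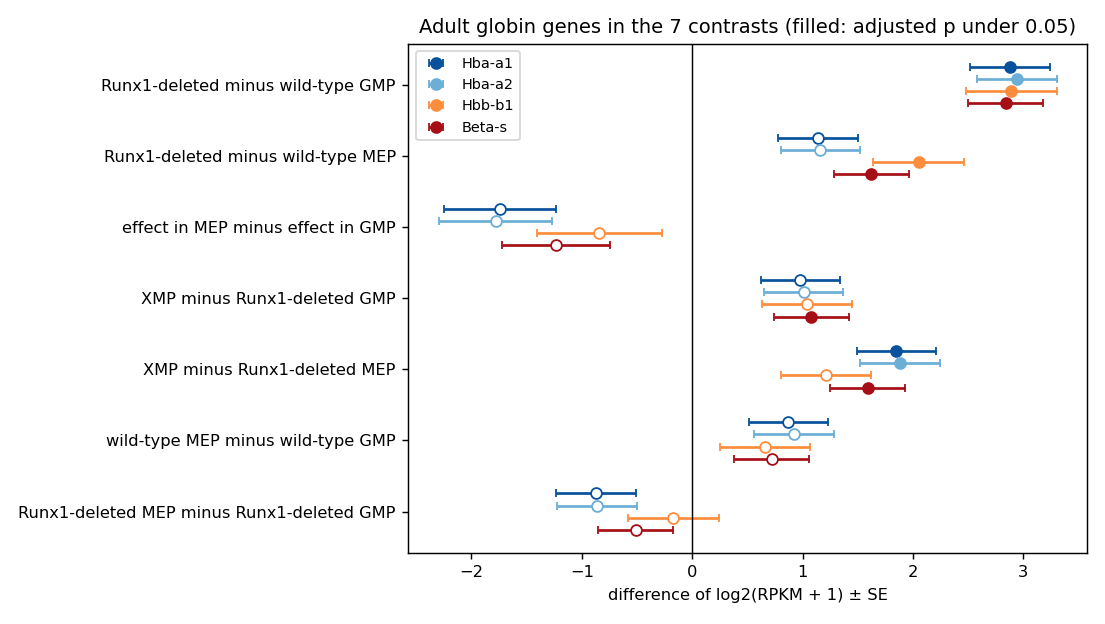
Differences of log2(RPKM + 1) ± SE of the 4 adult globin genes in 7 contrasts from 1 limma fit, filled where the adjusted p is under 0.05. All 4 genes are filled at 2.84 to 2.94 in the GMP genotype contrast, and the beta genes alone are filled in the MEP genotype contrast.

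XMP, which share CD16/32 with GMP and CD150 with MEP, had the highest mean of every adult globin gene. Over Runx1-deleted MEP, Hba-a1 rose by 1.85 ± 0.36 (SE, log2 scale; limma adjusted p = 0.0104), Hba-a2 by 1.88 ± 0.36 (adjusted p = 0.00932) and Beta-s by 1.59 ± 0.34 (adjusted p = 0.0172). Hbb-b1 differed by 1.21 ± 0.41 (95% interval 0.32 to 2.11, adjusted p = 0.105). So 3 of 4 genes were called, beside 5.14% of all tested genes called higher. The calls fell to 0 of 4 without replicate 2 of Runx1-deleted MEP or without replicate 1 of XMP, the XMP library with more globin, and to 2 of 4 without replicate 1 of Runx1-deleted MEP.

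Over Runx1-deleted GMP, Beta-s rose by 1.08 ± 0.34 with a limma adjusted p of 0.0480, just under the threshold. Hba-a1 differed by 0.98 (95% interval 0.19 to 1.77, adjusted p = 0.0872), Hba-a2 by 1.01 (0.22 to 1.80, adjusted p = 0.0757) and Hbb-b1 by 1.04 (0.15 to 1.94, adjusted p = 0.108). Of all tested genes, 9.75% were called higher. The single call ended without any 1 of 8 libraries, with Beta-s at an adjusted p of 0.394 without replicate 1 of Runx1-deleted GMP, 0.382 without replicate 1 of XMP and 0.0574 to 0.0596 without any of the wild-type or Runx1-deleted MEP libraries. Without replicate 2 of Runx1-deleted GMP or replicate 2 of XMP, 3 of 4 genes were called. In RPKM of the adult sum, XMP stood 2.12-fold above Runx1-deleted GMP and 3.40-fold above Runx1-deleted MEP. Both contrasts and the genotype contrasts share Runx1-deleted libraries.

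Between the gates, no adult globin gene passed the test in either genotype. In wild-type cells, MEP minus GMP was 0.87 for Hba-a1, 0.92 for Hba-a2, 0.72 for Beta-s and 0.66 for Hbb-b1 (limma adjusted p from 0.1 to 0.310), while 9.83% of all tested genes were called higher. In Runx1-deleted cells, the same difference was -0.87, -0.86, -0.51 and -0.17 in that order of genes (limma adjusted p from 0.113 to 0.828), and 24.5% of all tested genes were called in either direction. The 95% intervals were wide. In wild-type cells they ran from 0.07 to 1.66 for Hba-a1, 0.13 to 1.71 for Hba-a2, -0.04 to 1.47 for Beta-s and -0.23 to 1.56 for Hbb-b1. In Runx1-deleted cells they ran from -1.66 to -0.08, -1.65 to -0.07, -1.27 to 0.25 and -1.07 to 0.72 in that order of genes. A single call appeared in wild-type cells without replicate 1 or replicate 2 of XMP, and in Runx1-deleted cells without replicate 1 of GMP. The sign of Hbb-b1 in Runx1-deleted cells turned to 0.24 without replicate 2 of GMP. By group means, GMP thus stood above MEP in Runx1-deleted marrow and below it in wild-type marrow, and the change of order is the difference of effects that missed the threshold above.

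Of 11 further globin genes and symbols searched, 8 were in the table. Hbb-b2, another adult beta globin symbol, was the only one tested. It stood at 0.987 and 2.44 RPKM in the wild-type GMP libraries against 2.66 and 2.81 in the Runx1-deleted ones, at 2.39 and 3.14 against 2.85 and 4.22 in the MEP gate, and at 4.06 and 8.66 in XMP. Its genotype differences were 0.51 ± 0.33 in GMP (limma adjusted p = 0.361) and 0.26 ± 0.33 in MEP (adjusted p = 0.670), and neither passed the test. Hbq1b, a theta globin of the alpha cluster, reached 0.639 and 0.521 RPKM in XMP against at most 0.322 elsewhere, and Hbq1a reached at most 0.181. Hba-x, the embryonic zeta globin, was at 0 in 9 of 10 libraries, and Hbb-bh2 was at 0 in all. Mb (myoglobin), Ngb (neuroglobin) and Cygb (cytoglobin), the globins of muscle, neurons and other tissues, stayed at or under 0.132 RPKM.

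Factors that act on globin genes were counted between the genotypes. All 28 listed regulators were tested, and in GMP 1 was higher and 0 lower, with a median of 0.23, while in MEP 1 was higher and 2 were lower, with a median of 0.29; the medians of all tested genes were 0.05 and 0.03. Of all tested genes, 3.15% were higher and 2.07% lower in GMP, and 3.97% higher and 4.03% lower in MEP, so the counts of the list were near the background. Sox6, a factor that represses embryonic globin genes in definitive red cells, rose in GMP from 0.736 and 0.599 to 7.85 and 5.67 RPKM, by 2.20 ± 0.32 on the log2 scale (limma adjusted p = 0.00211). That call was lost without replicate 2 of wild-type GMP. In MEP Sox6 stood at 1.05 and 2.50 RPKM in wild-type and 3.14 and 5.81 in Runx1-deleted libraries (0.99 ± 0.32, adjusted p = 0.0953), and in XMP at 7.42 and 12.1.

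In MEP, Klf3, a Kruppel-like repressor that binds CACCC letters, rose from 3.35 and 10.8 to 24.0 and 28.4 RPKM (1.92 ± 0.35, limma adjusted p = 0.00721), a call lost without replicate 2 of Runx1-deleted MEP. Gata2, the GATA factor of early progenitors, fell from 216 and 227 to 101 and 119.9 RPKM (by 1.0 ± 0.21, adjusted p = 0.0148). Sfpi1, which encodes the myeloid factor PU.1, fell from 28 and 19.6 to 12.4 and 13.6 RPKM (by 0.80 ± 0.21, adjusted p = 0.0384). The Gata2 call was lost without replicate 1 of wild-type MEP or replicate 1 of Runx1-deleted MEP, and the Sfpi1 call under 14 of 23 alternatives. In MEP the count of higher regulators was 9 without replicate 2 of wild-type MEP and 0 without replicate 2 of Runx1-deleted MEP, and that of lower ones was 0 without replicate 1 of either MEP group and 1 without replicate 2 of Runx1-deleted MEP or any 1 wild-type GMP or XMP library. In GMP 3 regulators were higher and 1 was lower without either wild-type MEP library.

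The best-known activators were not called in either gate. Gata1 stood at 11.6 and 7.96 RPKM in wild-type and 7.94 and 11 in Runx1-deleted GMP, and at 103 to 128 RPKM in both MEP groups and XMP. Klf1, the Kruppel-like activator of adult beta globin, stood at 5.53 and 3.41 RPKM in wild-type and 1.60 and 2.61 in Runx1-deleted GMP, against 93.3 to 153 in the MEP groups and 25.6 and 33 in XMP. So the group with the second-highest globin mean, Runx1-deleted GMP, had the lowest Klf1 mean of the 5 groups. Bcl11a, a repressor of embryonic and fetal globin genes, had group means of 7.81 to 33 RPKM, Zbtb7a, another such repressor, 17 to 26.7, and Myb, a progenitor factor, 127 to 218, with no call in either genotype contrast.

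Heme must be made in step with globin, and 25 of 28 listed genes of heme synthesis, iron handling and hemoglobin assembly were tested; the other 3, which include the alpha globin chaperone Ahsp, were not analysed here. In GMP 1 gene was higher and 0 lower, beside 3.15% and 2.07% of all tested genes, so the counts were near the background. The median was -0.20, against 0.05 for all tested genes. The count of higher genes was 2 without replicate 1 of wild-type GMP or either wild-type MEP library, with 1 lower in the latter cases. Alas2, the erythroid form of the enzyme that begins heme synthesis, rose in GMP from 0.304 and 0.509 to 2.75 and 3.99 RPKM (1.62 ± 0.25 on the log2 scale, limma adjusted p = 0.00261), a call that no single left-out library ended. It stood at 0.417 and 0.623 RPKM in the wild-type MEP libraries, 1.70 and 1.73 in the Runx1-deleted ones (0.84 ± 0.25, adjusted p = 0.0641) and 4.71 and 8.79 in XMP. Alas2 thus passed the filter only through Runx1-deleted libraries, so its call is a description. Alas1, the housekeeping form, had a difference of 0.16 ± 0.20 in GMP and 0.02 ± 0.20 in MEP.

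In MEP 7 of the 25 genes were higher and 1 was lower, beside 3.97% and 4.03% of all tested genes, with a median of 0.48. Cpox, a late enzyme of heme synthesis, rose from 17.2 and 25.8 to 97.8 and 128 RPKM (2.35 ± 0.23, limma adjusted p = 0.000123), and Slc40a1, the iron exporter ferroportin, from 6.88 and 10.2 to 27.2 and 33.2 RPKM (1.73 ± 0.23, adjusted p = 0.000925). Both calls held without any single library. Slc11a2 (12.4 and 15 to 25.2 and 27.2 RPKM; 0.89 ± 0.17, adjusted p = 0.00903) and Tfrc (7.68 and 20.6 to 37.9 and 44.8 RPKM; 1.63 ± 0.36, adjusted p = 0.0198), an iron transporter and the transferrin receptor, rose as well. So did Ppox, the enzyme after Cpox (0.86 ± 0.21, adjusted p = 0.0284), and Eif2ak1, the heme-regulated kinase that limits globin translation (0.68 ± 0.17, adjusted p = 0.0318). All 4 of these calls ended without replicate 2 of Runx1-deleted MEP, and those of Tfrc, Ppox and Eif2ak1 also without replicate 1 of either MEP group. In GMP Cpox and Slc40a1 differed by -0.29 ± 0.23 and -0.47 ± 0.23, and the difference of the effects was called for both (Cpox 2.65 ± 0.32, adjusted p = 0.00230; Slc40a1 2.19 ± 0.33, adjusted p = 0.00786). The Slc40a1 difference lost its call without replicate 2 of wild-type GMP or replicate 2 of Runx1-deleted GMP. Hmox1, which breaks heme down, fell from group means of 4.17 to 0.659 RPKM (by 1.65 ± 0.39, adjusted p = 0.0269), a call lost without any of 5 libraries, both wild-type GMP, both wild-type MEP and replicate 2 of Runx1-deleted MEP. The count of higher genes fell to 3 without replicate 1 of wild-type MEP or replicate 1 of Runx1-deleted MEP, fell to 2 without replicate 2 of Runx1-deleted MEP and reached 12 without replicate 2 of wild-type MEP.

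Markers of late erythroblasts and reticulocytes, the cells in which globin RNA is most abundant, were measured as a list. Summed, they read 111 and 115 RPKM in the wild-type GMP libraries against 91.6 and 117 in the Runx1-deleted ones, 1834 and 1845 against 1846 and 2064 in the MEP gate, and 512 and 719 in XMP. The 2 GMP groups overlapped in that sum, of which Car1 alone made up 857 and 878 RPKM in wild-type MEP. Alas2, a defining marker, had ratios of mean RPKM of 8.29 between the genotypes in GMP, 3.30 in MEP, 2.0 for XMP to Runx1-deleted GMP and 3.94 for XMP to Runx1-deleted MEP, beside 7.71, 2.80, 2.12 and 3.40 for the adult globin sum. Slc4a1, another defining marker, had 31.3, 4.85, 2.23 and 4.65. Other listed genes went another way. Mean Car1 fell from 9.09 to 1.08 RPKM in GMP, and mean Rhag was 30.3 RPKM in Runx1-deleted MEP against 3.69 in XMP. In MEP, mean Car1 went from 867 to 354 RPKM, without a call, and mean Aqp1 from 296 to 612 RPKM. The near-equal sums of the MEP gate thus hold opposite changes of abundant genes. Of 28 tested members of 30 listed, 3 were higher and 1 lower in Runx1-deleted GMP, with a median of 0.21, and 13 were higher and 0 lower in Runx1-deleted MEP, with a median of 0.73, beside 3.15% and 2.07% of all tested genes in GMP and 3.97% and 4.03% in MEP. In XMP 22 were higher and 0 lower than in Runx1-deleted GMP, beside 9.75% of all tested genes called higher and 9.90% lower. Against Runx1-deleted MEP, 3 were higher and 14 lower in XMP, beside 5.14% of all tested genes called higher and 2.60% lower. In GMP 3 were lower without either wild-type MEP library, and 2 were higher without any 1 GMP library. The part of these cells in the globin result was not tested.

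The 3 genes of this list that rose in GMP were Alas2, described above, Slc4a1 and Trim10. No wild-type library reached 1 RPKM for any of them. All 3 thus passed the filter only through Runx1-deleted libraries, so their calls are a description and no support. Slc4a1, the band 3 anion exchanger of red cells, rose from 0.0527 and 0.0717 to 1.82 and 2.07 RPKM (1.47 ± 0.16 on the log2 scale, limma adjusted p = 0.000283), and no single left-out library ended the call. Trim10, an erythroid gene of terminal maturation, rose from 0 and 0.0559 to 0.641 and 0.840 RPKM (0.76 ± 0.16, adjusted p = 0.0165), a call lost without any 1 of the 4 GMP libraries. Car1, an abundant red cell carbonic anhydrase, fell from 7.62 and 10.6 to 0.496 and 1.67 RPKM (by 2.32 ± 0.40, adjusted p = 0.00559), a call lost without replicate 2 of wild-type GMP or replicate 1 of Runx1-deleted GMP. Of the defining markers of these cells, Spna1, the red cell alpha spectrin, stood at 0.0448 and 0.0742 RPKM in wild-type and 0.230 and 0.314 in Runx1-deleted GMP (0.26 ± 0.25, adjusted p = 0.548). The defining markers Slc4a1, Alas2 and Spna1 were above 0 in every library, and Ahsp was not analysed here.

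In MEP, Rhag, a subunit of the Rh complex of the red cell membrane, rose from 4.02 and 5.52 to 28.2 and 32.5 RPKM (2.45 ± 0.21, limma adjusted p = 7.21e-05), and no single left-out library ended the call. Epb4.2, the band 4.2 protein that anchors band 3, stood at 0.396 and 0.495 RPKM in wild-type MEP and 2.38 and 2.73 in Runx1-deleted MEP. It passed the filter only through those 2 Runx1-deleted libraries, so its call (1.30 ± 0.13, adjusted p = 0.000173), counted among the 13, is no support, and without either library it was not tested. The next by p were Cldn13, a claudin of erythroid cells, from 3.35 and 3.83 to 18.4 and 31.6 RPKM (2.46 ± 0.35, adjusted p = 0.00138), Ermap, an erythroblast membrane protein, from 22.4 and 39.2 to 99.1 and 114 RPKM (1.81 ± 0.31, adjusted p = 0.00489), and Ank1, the ankyrin of the red cell skeleton, from 2.58 and 4.88 to 10.6 and 19 RPKM (1.73 ± 0.30, adjusted p = 0.00549). Trim10 rose by 0.81 ± 0.16 (adjusted p = 0.00987), a call lost without replicate 1 of Runx1-deleted MEP. In XMP, Rhag at 2.92 and 4.46 RPKM and Epb4.2 at 0.872 and 0.977 RPKM lay below Runx1-deleted MEP, while globin lay above it. The effect on Rhag was larger in MEP than in GMP (by 1.97 ± 0.30, adjusted p = 0.00912), where the adult globin genes had differences below 0 that did not pass the test. Slc4a1 rose by 0.71 ± 0.16 in MEP (adjusted p = 0.0187), a call lost without replicate 1 of wild-type MEP or either Runx1-deleted MEP library. Slc4a1 and Trim10 passed the filter only through Runx1-deleted libraries, so their calls, counted among the 13, are no support either. The same holds for Spna1 and Spnb1, also among the 13, which reached 1 RPKM in only 1 wild-type library and so needed Runx1-deleted ones to pass. In MEP Spna1 went from 0.363 and 1.29 to 2.05 and 2.68 RPKM (0.92), a call lost under 14 of 22 alternatives. Spnb1 went from 0.523 and 1.31 to 4.38 and 2.67 RPKM (1.24), lost under 7 of 22. The count of 13 fell to 6 without replicate 1 of wild-type MEP, to 4 without replicate 1 of Runx1-deleted MEP and to 8 without replicate 2 of Runx1-deleted MEP. The call of the Rhag difference ended without replicate 2 of wild-type GMP or replicate 1 of Runx1-deleted GMP.

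**Figure D4:**
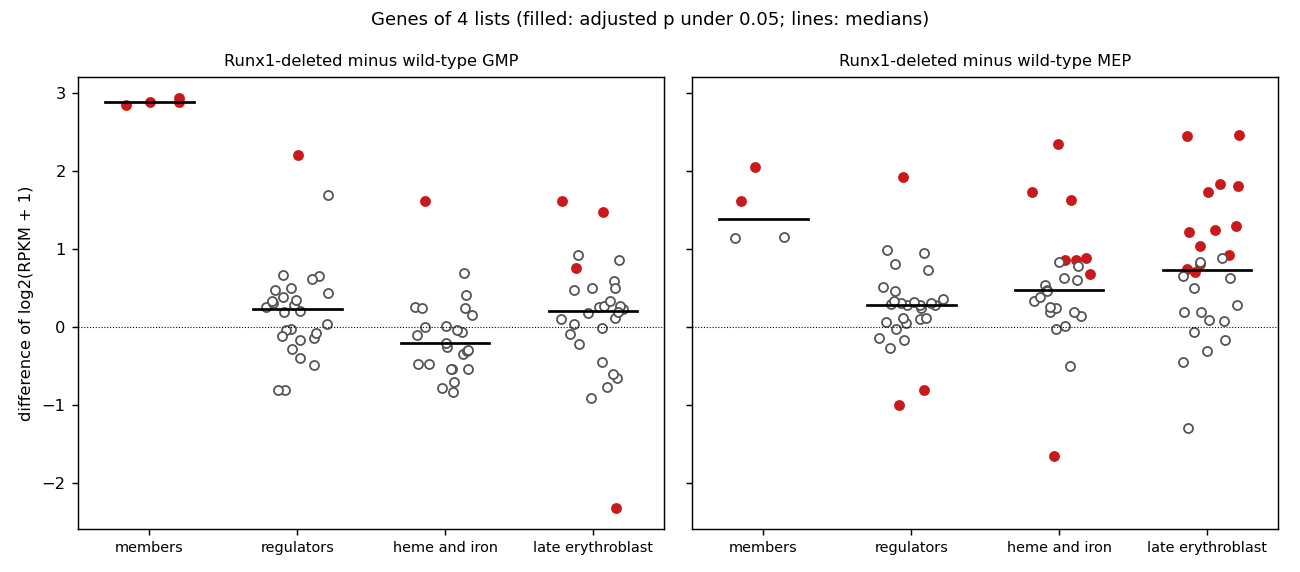
Differences of log2(RPKM + 1) between the genotypes in GMP (left) and MEP (right) for the 4 adult globin genes and the tested genes of 3 lists, filled where the adjusted p is under 0.05, with lines for medians. In GMP the globin median of 2.88 stands above the list medians of 0.23, -0.20 and 0.21, and in MEP the late erythroblast list has 13 filled points above 0.

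Markers of other cell types were measured in the same libraries. The summed level of 12 megakaryocyte and platelet markers was 46.4 and 59.2 RPKM in the wild-type GMP libraries against 160.3 and 185 in the Runx1-deleted ones, 842 and 915 against 769 and 921 in the MEP gate, and 1613 and 2028 in XMP. Of these 12 markers, 6 were higher in Runx1-deleted GMP and 5 in Runx1-deleted MEP, beside 3.15% and 3.97% of all tested genes. Macrophage markers, which can stand for the island macrophages that hold erythroblasts, summed to 6.19 to 27.2 RPKM over all libraries. In GMP 0 of 8 tested were called, beside 3.15% of all tested genes higher and 2.07% lower. In MEP 1 of the 8 was lower, beside 4.03% of all tested genes. In XMP 5 of the 8 were higher and 0 lower than in Runx1-deleted MEP, beside 5.14% and 2.60% of all tested genes. Against Runx1-deleted GMP, 2 were higher and 2 lower in XMP, beside 9.75% and 9.90%. The macrophage sum was 27.2 RPKM in replicate 1 of XMP and 14.8 in replicate 2, where the adult globin sum was 1576 and 789. Of the 12 megakaryocyte and platelet markers, 11 were higher in XMP than in Runx1-deleted GMP and 5 than in Runx1-deleted MEP. Of all tested genes, 9.75% and 5.14% were called higher in these contrasts. B and T cell markers summed to 6.96 to 27.5 RPKM and mature neutrophil markers to 18.4 to 365 RPKM. The part of these cell types in the globin levels was not tested.

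The tested genes most like the adult globin genes over the 10 libraries were ranked by Pearson correlation of log2(RPKM + 1) with the mean of the 4 members. The members themselves correlated at 0.974 or more with one another. Alas2 was the nearest of the other genes at 0.973, followed by Mapk11 (0.954), Gm4489 (0.951), Slc39a4 (0.944), Tulp3 (0.943), Mamdc2 (0.942), Capn5 (0.941), Slc4a1 (0.939), Jup (0.939) and Mpdz (0.934). So 2 of these 10 genes are on the late erythroblast list, which holds 28 of the 10905 tested genes. Trim10 of that list stood at rank 12, while Klf1 (0.031), Gata1 (0.295) and Car1 (-0.195) were far from the globin pattern. Alas2, Mapk11, Gm4489, Tulp3, Mamdc2, Slc4a1, Mpdz and Trim10 had means under 1 RPKM in both wild-type groups. They passed the filter only through Runx1-deleted libraries, which favours a globin-like order, so their likeness is a description and no support. The points share 5 groups, so these values describe the order of groups more than 10 separate samples.

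Like globin, Gm4489 had group means of 0 in the wild-type GMP group, 0.328 in the wild-type MEP group, 3.45 in Runx1-deleted MEP, 4.5 in Runx1-deleted GMP and 8.70 RPKM in XMP. Capn5, a calpain protease, had means of 4.77, 6.69, 11.8, 14.9 and 20.3 RPKM in that order, and Jup, the junction protein plakoglobin, 1.71, 1.84, 6.68, 5.82 and 16.3 RPKM. Capn5 thus kept the full order of the globin means, and Jup exchanged the Runx1-deleted MEP and GMP groups.

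**Figure D5:**
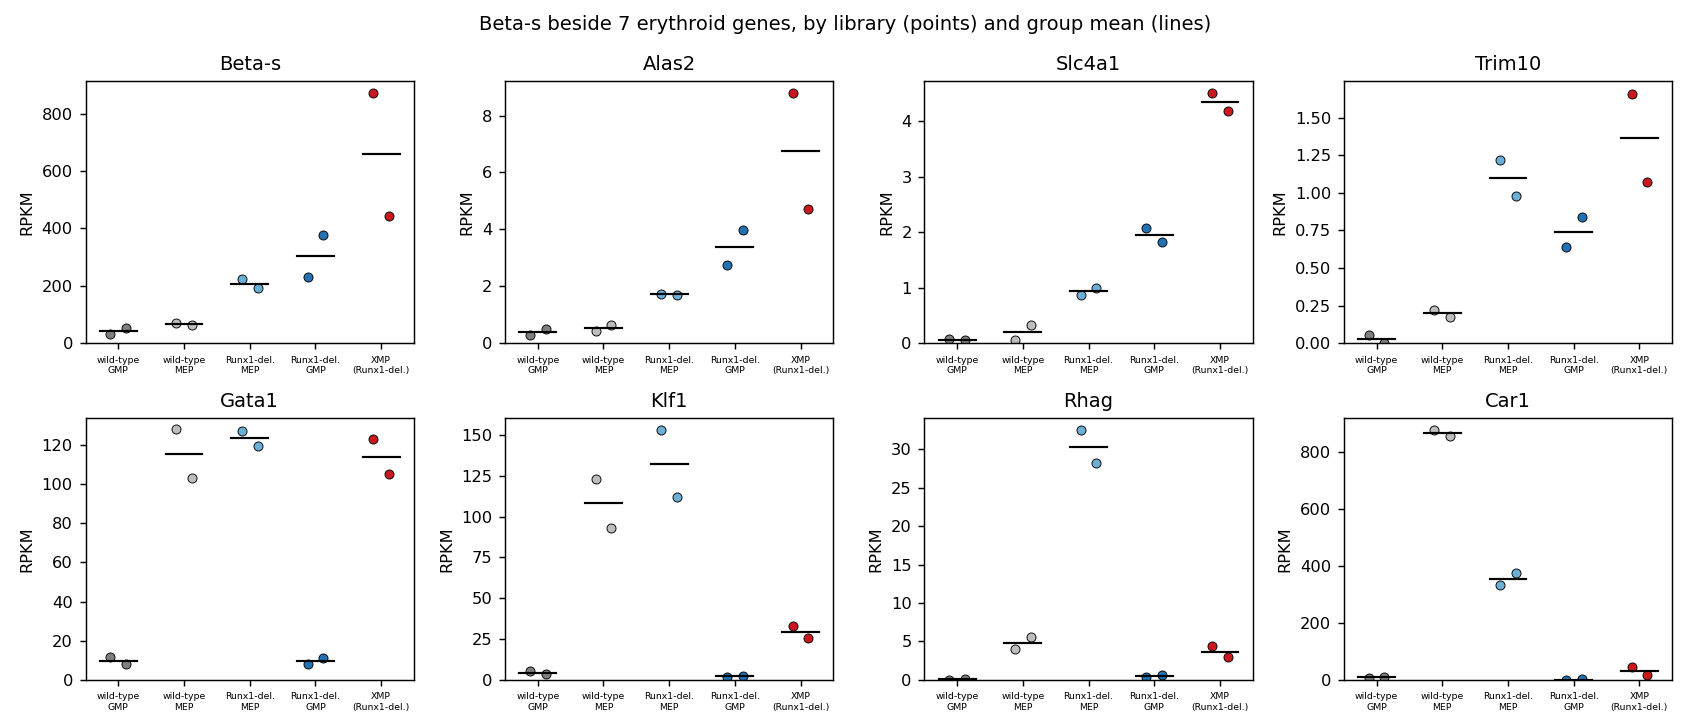
RPKM (linear axes from 0) of Beta-s and 7 erythroid genes by library (points) and group mean (lines), with groups ordered by the globin means. Alas2 and Slc4a1 are highest in XMP, as Beta-s is, whereas Gata1, Klf1, Rhag and Car1 are low in both GMP groups.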

How the data were processed

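The deposited table gives RPKM, as computed by the authors, for 23240 genes in 10 libraries; per the file headers it also holds p-values and FDR-corrected p-values of Baggerley's test, made by the authors. Per the labels' protocols, RNA came from peqGOLD TriFast extraction and the library kit was TruSeq V2 LT or NEBNext Ultra, without saying which kit made which library. The submitters' processing notes name mm9; no aligner or counting tool is given in the sources used here. Sample labels set the groups; lanes and library numbers are those in the column headers.

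Genes reaching 1 RPKM in 2 or more libraries were tested. The limma package (3.58.1, R 4.3.3) fitted 1 mean per group to log2(RPKM + 1) of all 10 libraries, with a trended eBayes step; Benjamini-Hochberg adjusted p under 0.05 was called. No count test was used, as the unit is RPKM. Fold changes on this scale understate those of low genes. Reads and gene lengths were worked back from the RPKM steps: 19336 genes gave whole reads within 0.01 read in all libraries, 3904 were at 0, and 412 lengths were settled with the GENCODE annotation. Both scripts were tested on simulated data. Promoters are from RefSeq (GRCm38.p6), which holds no window for Hbb-b1 or Hbb-bh1 here; its build differs from mm9, so only the printed windows have coordinates, on GRCm38.p6.

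The 6 members, the gene lists and the comparisons were chosen with earlier results of these data known. Named genes were the members, other listed globin genes, 7 fixed regulators, called regulators, called genes of the heme and late erythroblast lists with the smallest p (up to 6 each way), the defining markers (1 is not reported here) and the 10 genes most like globin. Alternatives changed the pseudocount (0.1 or 5), the filter, the normalization, the trend, library weights, blocks, gene length, lanes and the libraries used, or summed the paralogs.

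Deviations of same-numbered libraries from their group means correlated from -0.475 to 0.782 by replicate number. By library number they correlated from 0.297 to 0.782 among the 4 groups other than wild-type GMP and from -0.147 to 0.059 with it. As not every pair was over 0.1, neither number was taken to pair the libraries, and blocks on both were run as alternatives.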

Additional observations from a re-analysis of the deposited data

Results flagged for a closer look

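For 4 genes of the heme and late erythroblast lists the effect of genotype differed between the gates by the test of the difference itself (limma adjusted p under 0.05). They were 2 of 25 tested genes of the heme list and 2 of 28 of the late erythroblast list. Of all tested genes, 1.74% were called in either direction. The effect in MEP minus that in GMP was 2.65 on the log2 scale for Cpox, 2.19 for Slc40a1, 1.97 for Rhag and 0.97 for Epb4.2. Epb4.2 entered the test only through the 2 Runx1-deleted MEP libraries, where it is above 1 RPKM, so its difference is a description. For all 4 genes both Runx1-deleted MEP libraries lay above both wild-type MEP libraries, as for 21.6% of all tested genes. The 4 genes were picked by the difference of effects in these data, so that order is a description. Their genotype differences in GMP did not pass the test. The adult globin genes, Alas2 and Slc4a1 had differences of effects between the gates of the opposite sign, none of which passed.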

How the results depend on the processing

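The 4 globin calls in the GMP genotype contrast held under all 22 alternatives, with Beta-s from 2.49 to 3.41. In MEP (2 called) there were 0 without the filter and with library weights, 1 in lanes 4 and 5 alone, and 4 with the length trend removed or only the groups compared; leaving out 1 library gave 0 to 4. For XMP against Runx1-deleted GMP (1 called) there were 0 with a pseudocount of 0.1, without the filter, with a mean of at least 5 RPKM, with the replicate block, with paralogs summed and in lanes 4 and 5 alone, 2 with a pseudocount of 5 or quantile normalization, 4 with library weights or the length trend removed, and 0 to 3 without 1 library. For XMP against Runx1-deleted MEP (3 called) there were 0 without the filter and 0 to 3 without 1 library. Wild-type MEP against GMP (0 called) gave 2 with only the groups compared and 0 to 1 without 1 library, and Runx1-deleted MEP against GMP (0 called) gave 0 to 1. The difference of the effects gave 0 throughout. The 1 reversal was Hbb-b1 in Runx1-deleted MEP against GMP, 0.24 without replicate 2 of Runx1-deleted GMP, within -0.58 to 0.24 when 1 library was left out. The causes were not tested. With the replicate block the Beta-s call for XMP against Runx1-deleted GMP ended (1.08, limma adjusted p = 0.0502), no other globin call changed and genes called in the GMP genotype contrast went from 569 to 552; with the library-number block they were 708 and no globin call changed. Genes called ranged from 183 to 2023 in GMP, 219 to 3380 in MEP, 34 to 451 for the difference of the effects, 1200 to 3679 for XMP against Runx1-deleted GMP and 297 to 1544 for XMP against Runx1-deleted MEP, where they moved by over 1.5 times from 569, 872, 190, 2143 and 844; wild-type MEP against GMP went from 2352 to 1325 to 1567, and Runx1-deleted MEP against GMP from 2675 to 1579 to 1742. Alternatives for the lists were added after seeing the data. Where a group keeps 1 library, it is assumed to vary like the others. Depth limits Hbb-b1 in wild-type GMP (28 and 50 reads) and the embryonic genes.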
